A study of Arabidopsis thaliana with 48 samples.

Results

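Glucosinolate synthesis genes were followed in whole Arabidopsis thaliana seedlings, in 8 lines with estradiol-inducible constructs. The set was a list of 10 genes of the core pathway, out of 28496 gene identifiers in the count tables, and all 10 were found in every table. Of them, 6 belong to the aliphatic branch (MYB28, MYB29, BCAT4, MAM1, CYP79F1 and CYP83A1), 3 to the indolic branch (CYP79B2, CYP79B3 and CYP83B1), and SUR1 serves both branches. The constructs are built on CORONA (CNA) or PHABULOSA (PHB), which belong to the HD-ZIPIII transcription factors, homeodomain proteins with a leucine zipper. The labels name 2 PHB lines, PHB and PHB-SDdelta, and 6 CNA lines, CNA, CNA-SDdelta, CNA-PpHOX32, CNA-SmHOX32, CNA-KnC3HDZ and CNA-KnC3HDZ_8m. The submitters speak of chimeric CNA constructs, and the labels do not explain the suffixes. In every line, T2 seedlings 9 days old received a spray of β-estradiol at 50 µM (induced) or a spray without it (mock), and both sprays contained DMSO at 1% and the wetting agent Silwet L-77 at 0.005%. Harvest followed after 24 h. The 48 libraries form 16 groups of 3, labelled as biological replicates. The promoter that drives the constructs and whether a line is 1 transformant are not given in the sources used here. No line with an empty construct is among the groups, so an effect of β-estradiol itself and an effect of the construct cannot be told apart.

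Glucosinolates are sulfur-rich defence compounds of the cabbage family that are cleaved by thioglucosidases called myrosinases when tissue is damaged. Aliphatic glucosinolates are made from methionine after its side chain has been lengthened, and indolic glucosinolates are made from tryptophan. In both branches a cytochrome P450 of the CYP79 family turns the amino acid into an aldoxime, a P450 of the CYP83 family oxidizes the aldoxime, and the carbon-sulfur lyase SUR1 releases a thiol that is then glucosylated and sulfated. The aldoxime of the indolic branch is also a starting point for camalexin, an antimicrobial compound, and for a route to auxin.

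CYP79B2 and CYP79B3 encode a pair of closely related enzymes with the same reaction, tryptophan to indole-3-acetaldoxime, and CYP79B2 was called on induction in 4 lines while CYP79B3 was called in 0, so the DNA before their starts is shown first. Sequences and positions are those of the RefSeq annotation of TAIR10.1. CYP79B2 (AT4G39950) lies on the plus strand of chromosome 4 at chr4:18525042-18527602 with 3 exons. CYP79B3 (AT2G22330) lies on the plus strand of chromosome 2 at chr2:9488413-9491404 with 2 exons. The 250 bases before each start, at chr4:18524792-18525041 and chr2:9488163-9488412, are given 5′ to 3′ on the strand of the gene, with capitals marking the stretches of at least 15 bases that the windows share letter for letter.
CYP79B2: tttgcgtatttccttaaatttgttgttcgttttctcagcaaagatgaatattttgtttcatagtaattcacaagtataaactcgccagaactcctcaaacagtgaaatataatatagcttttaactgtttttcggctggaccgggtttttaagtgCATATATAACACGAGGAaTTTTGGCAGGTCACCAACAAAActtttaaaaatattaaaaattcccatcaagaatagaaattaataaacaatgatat
CYP79B3: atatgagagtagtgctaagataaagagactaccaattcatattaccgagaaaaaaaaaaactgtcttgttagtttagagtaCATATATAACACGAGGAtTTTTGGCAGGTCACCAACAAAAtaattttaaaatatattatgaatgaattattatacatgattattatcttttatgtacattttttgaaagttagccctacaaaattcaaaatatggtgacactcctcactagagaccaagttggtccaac
The shared stretches were 17 and 22 bases long, stood next to each other in both windows, and were each found in 2 of the 27443 windows of the same length before annotated genes. Their first bases lay 95 and 77 bases before the annotated start of CYP79B2 and 169 and 151 bases before that of CYP79B3.

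CYP83B1 (AT4G31500, chr4:15273410-15275404, minus strand, 2 exons) was the other indolic gene that rose, and its window at chr4:15275405-15275654 is given for comparison, in lower case because it holds neither stretch.
CYP83B1: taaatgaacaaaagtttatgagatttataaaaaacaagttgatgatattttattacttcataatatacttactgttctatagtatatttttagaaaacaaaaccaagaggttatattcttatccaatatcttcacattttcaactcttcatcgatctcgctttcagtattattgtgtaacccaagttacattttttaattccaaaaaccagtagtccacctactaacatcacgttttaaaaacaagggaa
The windows of all 10 genes were searched on both strands for the homeodomain leucine zipper core AATNATT and the G-box CACGTG, which do not overlap each other. The core was in 3 of 10 windows (MYB28, BCAT4 and CYP79B3), against 30.5% of all windows. The G-box was in the windows of CYP83A1 and SUR1, against 6.49%.

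Library totals ran from 1808765 to 37222617 counts, with a median of 5944946.5, so that 3 counts corresponded to between 0.08 and 1.5 CPM (CPM are counts divided by the scaled library total and multiplied by 1000000). A gene was tested when it passed a filter on low counts, which 18909 identifiers did, and is called here when its adjusted p-value, from the quasi-likelihood test of edgeR, is under 0.05. Markers of leaf and root were both present, as the label of whole seedling implies. The summed level of 5 leaf mesophyll genes ran from 11900 to 37600 CPM in mock and from 5110 to 18400 CPM in induced libraries, and the induced libraries lay below the mock libraries in each of the 8 lines. The summed level of 10 root genes ran from 34.2 to 441 CPM, with the root markers NRT2.1 and IRT1 at 0 in 43 and 39 of the 48 libraries. In bulk seedlings, fewer cells of a type and less RNA per cell cannot be told apart. The transcript of the gene named first in the line's label rose on induction in 7 of the 8 lines and was not called in CNA-SDdelta.

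The branches differed first in how many counts their genes held. The annotation and strand setting used for counting are not given, so few counts and little transcript cannot be told apart. Because QuantSeq counts the 3' end of each transcript, a count does not scale with transcript length, and CPM levels of different genes are set side by side here without a length correction. Over all 48 libraries together, the 5 aliphatic genes MYB29, BCAT4, MAM1, CYP79F1 and CYP83A1 held 377 counts of 347815496, whereas CYP79B2 alone held 10960. CYP79F1 (AT1G16410), which makes aldoximes from chain-elongated methionine, reached at most 2 counts in any library and 19 in all. CYP83A1 (AT4G13770), the next P450 of that branch, had 14 counts and was at or under 3 counts in 47 of 48 libraries. MYB29 (AT5G07690), an activator of the aliphatic genes, had 30 counts and was at 0 in 39 libraries. BCAT4 (AT3G19710), the aminotransferase that takes methionine into chain elongation, had 102 counts and was at 0 in 27 libraries. BCAT4 overlaps AT3G19700 on the opposite strand, so its few counts are uncertain. MAM1 (AT5G23010), the condensing enzyme of chain elongation, was the most widely detected of these 5, with 212 counts, 0 in 5 libraries and a highest level of 5.27 CPM. The last 300 exonic bases of MAM1 hold a stretch that resembles part of the transcript of its neighbour IMS2 (76.0% identity over 75 bases). No other member had such a match to another gene. These 5 genes did not pass the filter. Tested without it, none was called in any comparison.

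**Figure D1:**
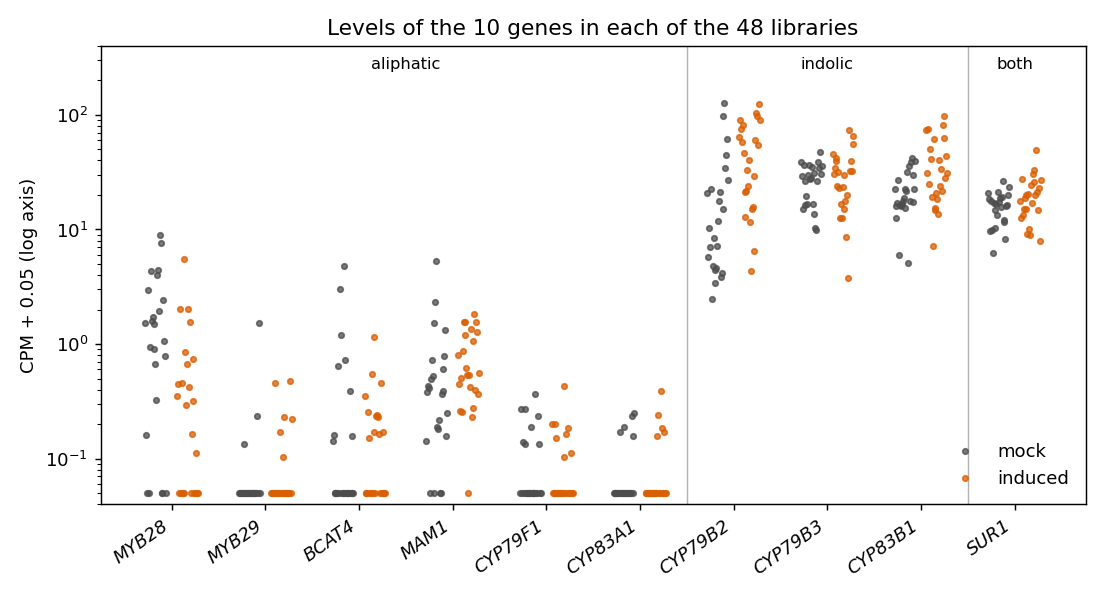
Level of each of the 10 genes in each of the 48 libraries, as CPM with 0.05 added so that libraries at 0 can be drawn on the log axis; grey points are mock and orange points induced libraries. The aliphatic genes lie mostly at 0 or below a few CPM, while CYP79B2, CYP79B3, CYP83B1 and SUR1 have medians of 21.3, 29.7, 22.7 and 17.1 CPM and no library at or under 3 counts.

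The remaining aliphatic member, MYB28 (AT5G61420), encodes the main activator of the aliphatic branch. It had 390 counts, was at 0 in 14 libraries and at or under 3 counts in 25, and had a median of 0.514 CPM. The indolic genes and SUR1 were above 3 counts in every library. Their summed counts were 10960 for CYP79B2, 9722 for CYP79B3, 9488 for CYP83B1 and 6442 for SUR1. The same contrast held in the wider lists of pathway genes. Of 22 further aliphatic genes in the tables, 12 had a mean under 1 CPM, against 0 of 17 further indolic genes.

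CYP79B2 was the member called on induction in the most lines, 4 of 8. In the CNA line it stood at 64.6, 89.6 and 75.1 CPM in the induced libraries and at 20.8, 5.70 and 10.2 CPM in mock. Every induced library was above every mock library, and the rise was 2.63 ± 0.54 on the log2 scale (SE, adjusted p 0.000409). In CNA-SDdelta the induced libraries stood at 58.2, 82.3 and 46.7 CPM and the mock libraries at 6.97, 22.7 and 2.43 CPM. The groups did not overlap, and the rise on the log2 scale was 2.53 ± 0.54 (SE, adjusted p 0.00111).

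In PHB the libraries stood for CYP79B2 at 12.8, 21.1 and 21.5 CPM induced and 4.73, 8.36 and 3.36 CPM mock. The groups did not overlap, and the log2 fold change was 1.72 ± 0.55 (SE, adjusted p 0.0327). This call was lost when any of PHB induced replicates 2 and 3 or mock replicates 1 and 3 was left out, with adjusted p-values up to 0.18. In PHB-SDdelta the induced libraries stood at 32.8, 23.8 and 40.6 CPM and the mock libraries at 4.39, 4.57 and 7.12 CPM. The log2 fold change was 2.61 ± 0.57 (SE, adjusted p 0.000887), again without overlap.

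The other 4 lines gave no call for CYP79B2. In CNA-KnC3HDZ the induced libraries stood at 11.6, 4.32 and 15 CPM and the mock libraries at 11.8, 17.6 and 21.0 CPM. The groups overlapped, and the log2 fold change was −0.74 ± 0.53 (SE, adjusted p 0.924). In CNA-KnC3HDZ_8m the induced libraries stood at 15.7, 29.2 and 6.49 CPM and the mock libraries at 3.78, 4.13 and 15 CPM. A single mock library, replicate 3, overlapped the induced ones. The log2 fold change was 1.26 ± 0.55 (SE, adjusted p 0.203), and with that library left out it was 2.14 and was called.

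CNA-SmHOX32 and CNA-PpHOX32 started from a higher mock level than CNA. In CNA-SmHOX32 the libraries stood at 59.9, 103 and 98.0 CPM induced and at 98.2, 128 and 34.5 CPM mock, and the log2 fold change was -0.00 ± 0.50 (SE, adjusted p 1). In CNA-PpHOX32 they stood at 54.4, 124 and 90.6 CPM induced and at 44.9, 61.5 and 26.8 CPM mock, and the log2 fold change was 1.01 ± 0.51 (SE, adjusted p 0.279). The groups overlapped in both lines.

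**Figure D2:**
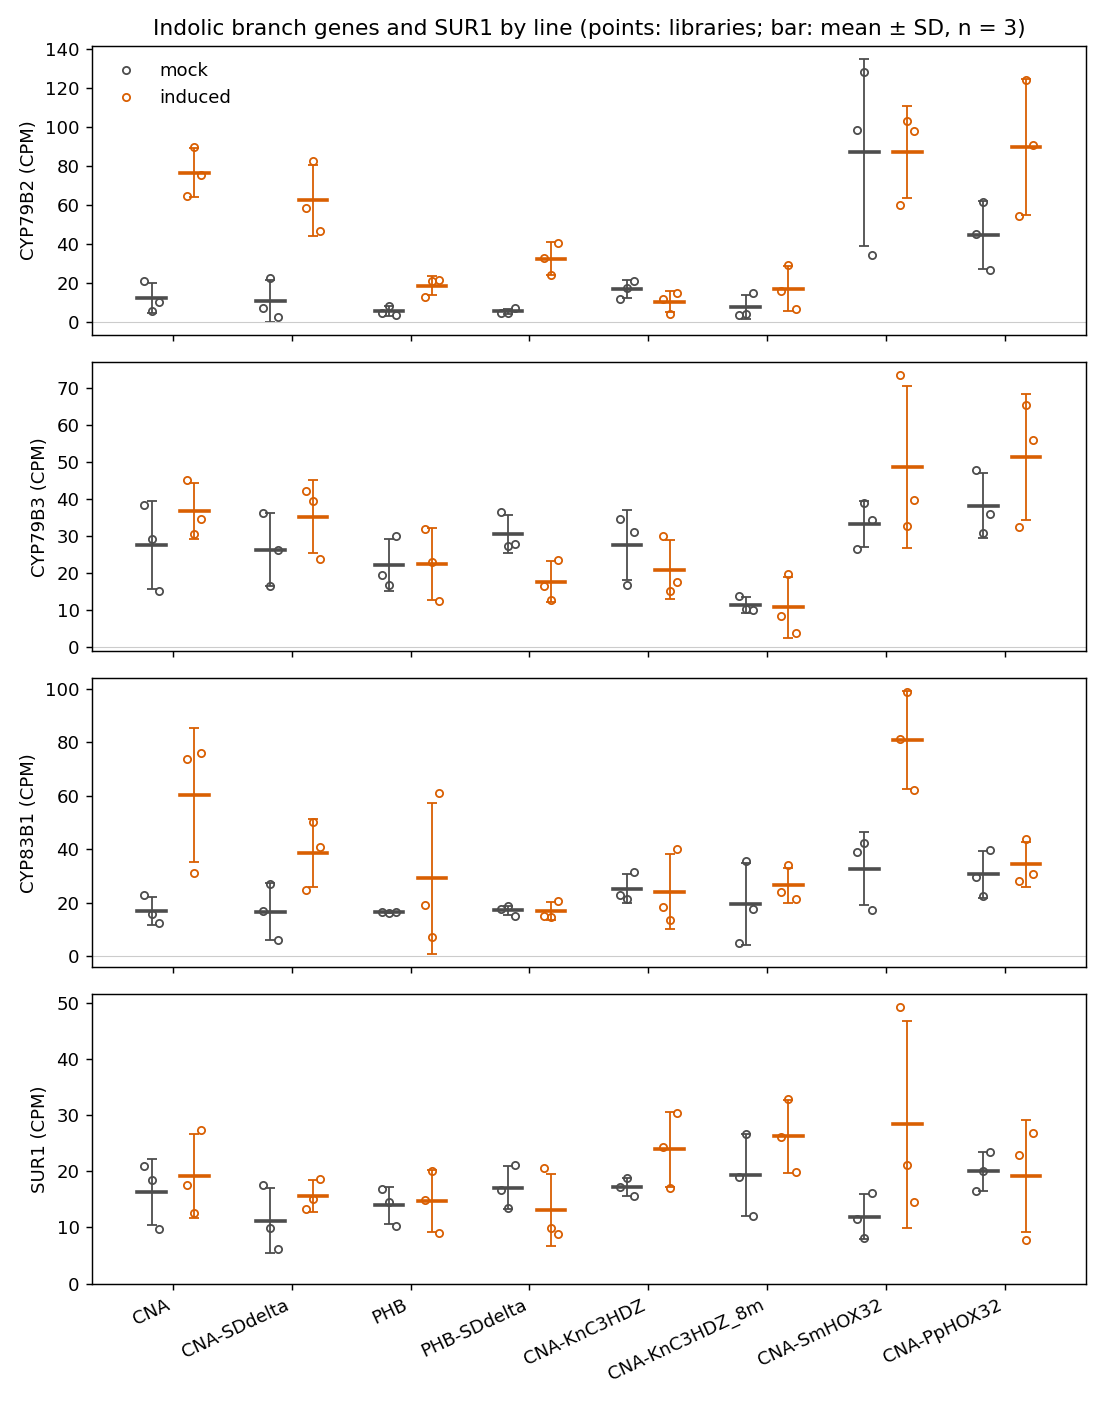
CPM of CYP79B2, CYP79B3, CYP83B1 and SUR1 in each line, mock in grey and induced in orange; open points are libraries, and bars are the mean ± SD of 3 libraries. CYP79B2 is separated between treatments in CNA, CNA-SDdelta, PHB and PHB-SDdelta, and its mock libraries are highest in CNA-SmHOX32, at a mean of 87.1 CPM.

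Ordered by mean, CYP79B2 ran from 89.7 ± 35 CPM in induced CNA-PpHOX32 through 87.1 ± 48 in mock CNA-SmHOX32, 86.9 ± 24 in induced CNA-SmHOX32, 76.5 ± 13 in induced CNA and 62.4 ± 18 in induced CNA-SDdelta down to 5.36 ± 1.5 CPM in mock PHB-SDdelta (SD, n = 3 each). Neighbouring groups in this order overlapped in 14 of 15 steps. The exception was the step from induced PHB-SDdelta at 32.4 ± 8.4 to induced PHB at 18.5 ± 4.9 CPM. For CYP79B3, CYP83B1, SUR1 and MYB28 all 15 steps overlapped.

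CYP79B3, the paralogue, was not called in any line. In CNA its libraries stood at 45.2, 30.4 and 34.6 CPM induced and 38.4, 29.3 and 15 CPM mock, an overlap, and the log2 fold change was 0.41 ± 0.42 (SE, adjusted p 0.652). In PHB-SDdelta, where CYP79B2 rose, CYP79B3 stood at 16.6, 12.6 and 23.6 CPM induced and 36.4, 27.4 and 27.9 CPM mock. The induced libraries all lay below the mock ones there, but the log2 fold change of −0.80 ± 0.43 (SE) was not called (adjusted p 0.374). Over the 8 lines its log2 fold change ran from −0.80 to 0.56. Its group means ran from 51.2 ± 17 CPM in induced CNA-PpHOX32 to 10.7 ± 8.3 CPM in induced CNA-KnC3HDZ_8m (SD, n = 3).

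CYP83B1, which oxidizes indole-3-acetaldoxime, was called in a single line, CNA, where it rose. Its induced libraries there stood at 73.7, 31.2 and 75.8 CPM and its mock libraries at 22.7, 15.9 and 12.5 CPM. The groups did not overlap, and the log2 fold change was 1.82 ± 0.51 (SE, adjusted p 0.0133). The call was lost without CNA induced replicate 1 or 3 or mock replicate 2 or 3 (adjusted p up to 0.0843). In CNA-SmHOX32 the libraries stood at 81.1, 98.7 and 62.2 CPM induced and at 38.8, 42.2 and 17.2 CPM mock. They did not overlap either, but the log2 fold change of 1.31 ± 0.50 (SE) was not called (adjusted p 0.082). In PHB the induced libraries were spread from 7.15 to 61.0 CPM around mock libraries at 16.4, 16.1 and 16.6 CPM. The response of CYP83B1 was compared with that in CNA for PHB, CNA-SDdelta, CNA-KnC3HDZ, CNA-SmHOX32 and CNA-PpHOX32, and none of these 5 differences was called. The value was −1.90 ± 0.71 for CNA-KnC3HDZ minus CNA (log2, SE, adjusted p 0.232).

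SUR1 (AT2G20610), the lyase shared by both branches, was not called in any line. Its log2 fold change ran from −0.38 in PHB-SDdelta to 1.24 in CNA-SmHOX32. In CNA-SmHOX32 the libraries stood at 49.3, 21.1 and 14.6 CPM induced and at 11.5, 8.16 and 16.1 CPM mock, an overlap by 1 library (log2 fold change 1.24 ± 0.49, SE, adjusted p 0.09).

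**Figure D3:**
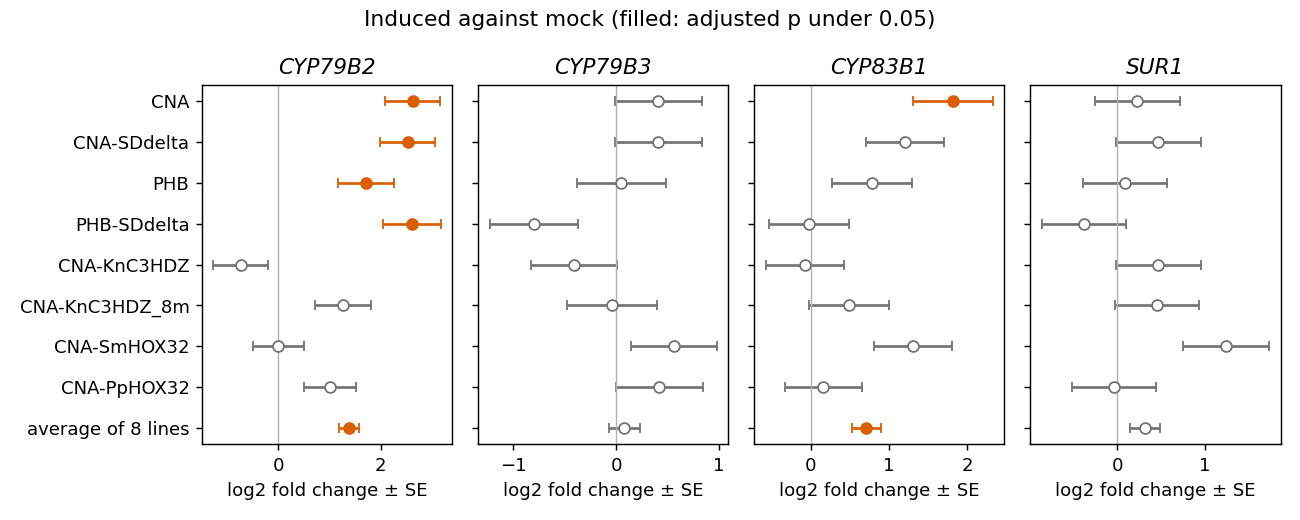
Log2 fold change of induced against mock with its approximate standard error, for 4 members in each line and averaged over the 8 lines; filled orange points have an adjusted p under 0.05. CYP79B2 is filled in 4 lines with values from 1.72 to 2.63, CYP83B1 in CNA at 1.82, and CYP79B3 and SUR1 in none.

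Counted by line, 2 of the 5 tested members were called in CNA, against 8.01% of all tested genes. CNA-SDdelta, PHB and PHB-SDdelta gave 1 each, against 4.8%, 9.43% and 7.03%. CNA-KnC3HDZ, CNA-KnC3HDZ_8m, CNA-PpHOX32 and CNA-SmHOX32 gave 0 each by edgeR, against 3.3%, 7.01%, 5.48% and 10.1%. Of those 4 lines, the unadjusted p was under 0.05 for 2 members in CNA-KnC3HDZ_8m, 2 in CNA-SmHOX32 and 0 in the others, and DESeq2 also called 0 in each. All calls in single lines were rises, and all were of CYP79B2 or CYP83B1.

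Averaged over the 8 lines, 3 of the 5 tested members were called, against 28.5% of all tested genes. CYP79B2 was higher by 1.38 ± 0.19 (log2, SE, adjusted p 1.68e-08), with a positive value in 6 of 8 lines. CYP83B1 was higher by 0.71 ± 0.18 (log2, SE, adjusted p 0.00128), also positive in 6 of 8. MYB28 was lower by this measure, with an average of −1.95 ± 0.64 (log2, SE, adjusted p 0.0151) and a negative value in 8 of 8 lines. The average was not called for CYP79B3 (0.08 ± 0.15, log2, SE, adjusted p 0.806) or SUR1 (0.32 ± 0.17, log2, SE, adjusted p 0.171).

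MYB28 rested on few counts, and no single line gave a call. The widest difference was in CNA-KnC3HDZ_8m, where it stood at 0, 0.114 and 0.683 CPM induced and at 1.89, 8.81 and 7.64 CPM mock. The groups did not overlap, with 3 counts in all over the induced libraries and 76 over the mock ones (adjusted p 0.198). In PHB it was at 0 in induced replicates 1 and 2 and at 5.5 CPM in replicate 3, against 4.31, 1.55 and 1.68 CPM in mock, an overlap. In CNA, the induced libraries held 3 counts in all and the mock libraries 17, of which 16 were in 1 library. The fitted fold change of a group with so few counts depends on the fit, and the average call was lost without CNA mock replicate 1 or CNA-SmHOX32 mock replicate 3, with adjusted p up to 1.

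**Figure D4:**
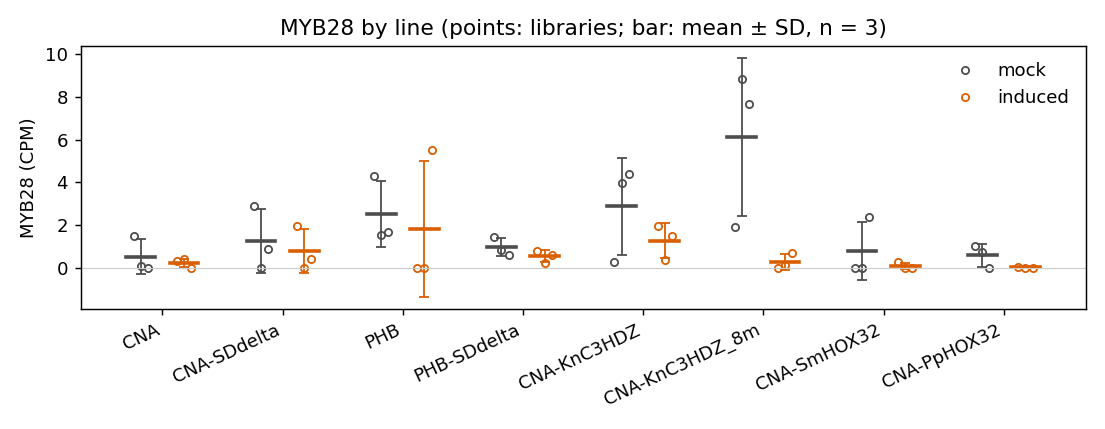
CPM of MYB28 in each line, mock in grey and induced in orange; open points are libraries and bars the mean ± SD of 3 libraries. Mock CNA-KnC3HDZ_8m is highest, at 6.11 CPM on average, and 14 of the 48 libraries are at 0.

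Whether lines responded differently was tested as the difference between their log2 fold changes. For CYP79B2 the response was lower in CNA-KnC3HDZ than in CNA, with a log2 difference of −3.37 ± 0.75 (SE, adjusted p 0.00518), in a comparison that called 1.53% of all genes. This held in all 12 fits that left out 1 library of either line (adjusted p up to 0.0347). The response was also lower in CNA-SmHOX32 than in CNA, at −2.63 ± 0.73 (log2, SE, adjusted p 0.0327), where 2.74% of all genes were called. That call was lost without CNA induced replicate 2, CNA mock replicate 2 or 3, CNA-SmHOX32 induced replicate 1 or CNA-SmHOX32 mock replicate 2, with adjusted p up to 0.113. These comparisons share the CNA libraries.

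The remaining differences gave 0 called members by edgeR. For CYP79B2 the response in CNA-SDdelta minus that in CNA was −0.10 ± 0.73, that in PHB minus CNA −0.91 ± 0.75, and that in PHB-SDdelta minus PHB 0.89 ± 0.77 (log2, SE). These standard errors leave room for differences in either direction. CNA-PpHOX32 minus CNA was −1.62 ± 0.72 (adjusted p 0.34) and CNA-KnC3HDZ_8m minus CNA-KnC3HDZ was 2.01 ± 0.76 (adjusted p 0.168). At an unadjusted p under 0.05 there were 2 members in the former, 1 in the latter, and 0 in the comparisons of PHB with CNA and of the SDdelta lines with their counterparts, and the share of all genes called was 0.783%, 3.93%, 1.44%, 0.106% and 0.111%. DESeq2 called 0 members in each of these 5.

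The 7 comparisons of mock groups called members in 2 cases. Mock seedlings already differed between lines in CYP79B2. Mock CNA-SmHOX32 was higher than mock CNA by 2.81 ± 0.54 (log2, SE, adjusted p 0.000264), at 87.1 ± 48 against 12.3 ± 7.8 CPM (SD, n = 3), in a comparison that called 8.68% of all genes. The lowest of the former, 34.5 CPM, lay above the highest of the latter, 20.8 CPM. Mock CNA-PpHOX32 was higher than mock CNA by 1.85 ± 0.52 (log2, SE, adjusted p 0.0479), at 44.4 ± 17 CPM (SD, n = 3), where 1.76% of genes were called. This second call was lost without CNA mock replicate 2 or 3 or CNA-PpHOX32 mock replicate 1 or 2 (adjusted p up to 0.312). The other 5 mock comparisons gave 0 called members by edgeR and by DESeq2. They were CNA-SDdelta minus CNA (0.0529% of all genes called), CNA-KnC3HDZ minus CNA (0.138%), PHB minus CNA (4.08%), PHB-SDdelta minus PHB (0.0582%) and CNA-KnC3HDZ_8m minus CNA-KnC3HDZ (2.72%). At an unadjusted p under 0.05 there was 1 member in PHB minus CNA, 2 in the last and 0 in the others. Set beside the responses, CNA-SmHOX32 and CNA had induced means of 86.9 and 76.5 CPM and mock means of 87.1 and 12.3 CPM. CNA-KnC3HDZ had an induced mean of 10.3 ± 5.5 CPM and a mock mean of 16.8 ± 4.6 CPM (SD, n = 3). The median of all tested genes was itself shifted by −0.14 (log2) in mock CNA-SmHOX32 minus CNA and by 0.15 and 0.10 in the response differences of CNA-SmHOX32 and CNA-KnC3HDZ from CNA. The labels name no batch, and a batch that coincided with a line cannot be told apart from it.

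The 48 libraries differ in depth, line and treatment, and correlations across them were not corrected for group. Log2 CPM of CYP79B2 went with that of CYP83B1 (Pearson's r 0.69) more than with that of CYP79B3 (0.48). The r was −0.50 between MYB28 and CYP79B2 and 0.04 between SUR1 and CYP79B2. The 5 other genes whose log2 CPM was most like the mean of the indolic members, over the same 48 libraries, were SOT16 (r 0.83, Spearman's rho 0.78), CCOAMT (0.82, 0.80), GPAT4 (0.81, 0.80), YLS5 (0.80, 0.79) and AT4G32020 (0.79, 0.73). SOT16 encodes a sulfotransferase that acts on indolic desulfoglucosinolates.

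The other genes of the indolic pathway were mostly higher on induction. Of 17 listed genes, all tested, 11 rose and 3 fell on average over the lines, where 28.5% of all tested genes were called in either direction. Their median log2 fold change was 0.79 against 0.00 for all tested genes. In CNA 6 rose and 0 fell, against 8.01% of all genes called, with a median of 1.15 against −0.08 for all genes. Those were TSB1 (1.02), SOT16 (1.58), GSTF9 (1.02), GSTF10 (1.76), CYP81F2 (1.60) and IGMT1 (1.17), as log2 fold changes. In CNA-KnC3HDZ 0 of 17 were called in either direction, against 3.3% of all genes, with a median of 0.40 against 0.01. In CNA-SmHOX32 5 rose, among them the glucosyltransferase gene UGT74B1 (1.87, adjusted p 0.000612), and CYP81F1 and CYP81F4 fell. CYP81F1 there had 1 count over the induced libraries and 90 in 1 mock library.

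**Figure D5:**
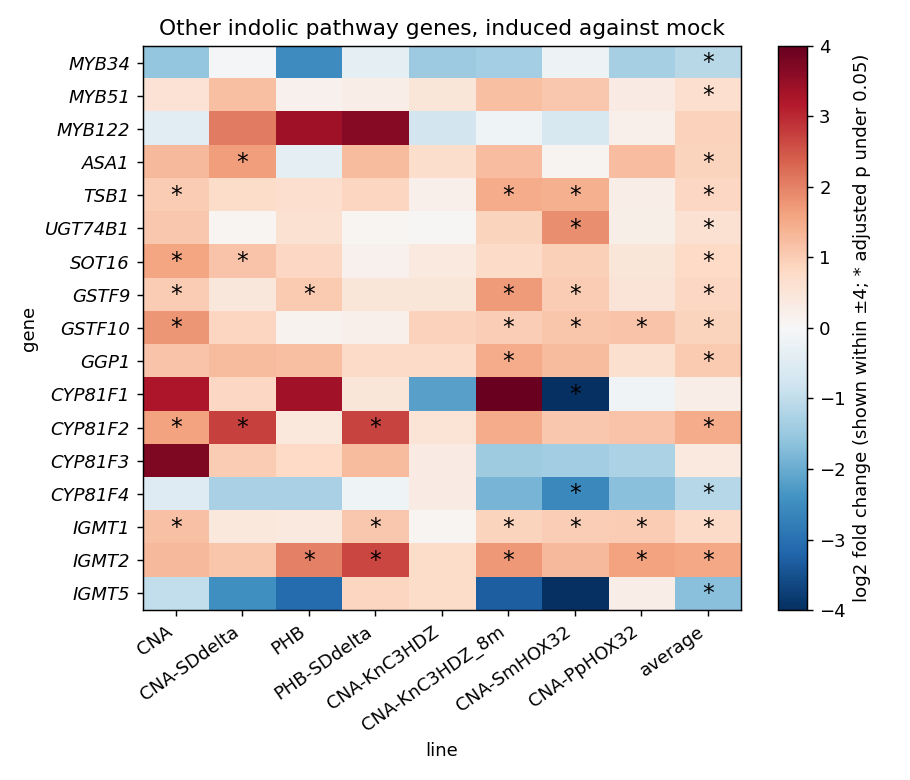
Log2 fold change, induced against mock, of 17 further indolic pathway genes in each line and on average over the 8 lines; red is higher and blue lower in induced libraries, values beyond 4 are drawn at 4, and a star marks an adjusted p under 0.05. In the average column 11 genes are starred as higher and MYB34, CYP81F4 and IGMT5 as lower.

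By step of the pathway, the tryptophan synthesis genes ASA1 and TSB1 rose on average by 0.89 ± 0.18 and 0.82 ± 0.11 (log2, SE). The glutathione transferase genes GSTF9 and GSTF10 rose by 0.84 ± 0.08 and 0.89 ± 0.10, each called in 4 lines. GGP1, whose product processes the glutathione conjugate, rose by 1.06 ± 0.17, UGT74B1 by 0.61 ± 0.14 and SOT16 by 0.79 ± 0.12. Among genes that modify the finished indolic compound, CYP81F2, a P450 that hydroxylates the indole ring, rose by 1.47 ± 0.18 and was called in CNA, CNA-SDdelta and PHB-SDdelta. The indole glucosinolate methyltransferase genes IGMT1 and IGMT2 rose by 0.76 ± 0.09 and 1.55 ± 0.16. IGMT5 fell on average (−1.67 ± 0.61, adjusted p 0.0308), with 15 libraries at 0, and CYP81F4 fell (−1.14 ± 0.21, adjusted p 1.62e-05).

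The regulators of the indolic branch did not move together. MYB51 rose on average by 0.66 ± 0.15 (log2, SE, adjusted p 0.000413) and MYB34 fell by 1.11, with an average of −1.11 ± 0.29 (adjusted p 0.00186) and negative values in 8 of 8 lines. MYB34 stood at 1.88 ± 1.6 CPM in induced and 5.78 ± 0.9 CPM in mock CNA (SD, n = 3). Neither was called in a single line. Of 8 regulators outside the MYB family, 1 rose and 1 fell on average, a share close to the 28.5% of all genes called, with a median log2 fold change of 0.04. SLIM1, a regulator of the response to sulfur shortage, rose (0.53 ± 0.21, adjusted p 0.0486), and MYC4, a partner of the MYB factors in jasmonate signalling, fell (−0.96 ± 0.18, adjusted p 1.82e-05).

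Of the 22 further aliphatic genes, 14 were tested, and 4 rose and 3 fell on average, against 28.5% of all genes called. Their median log2 fold change was 0.17 against 0.00 for all genes. FMO GS-OX4 (AT1G62570), a flavin monooxygenase that oxidizes methylthioalkyl glucosinolates, stood apart. It rose from 67.5 ± 16 to 1130 ± 370 CPM in CNA, from 22.6 ± 4.8 to 503 ± 160 CPM in PHB and from 29.0 ± 4.7 to 684 ± 69 CPM in CNA-KnC3HDZ_8m (SD, n = 3 each). It was called in 6 lines and not in CNA-KnC3HDZ or CNA-SmHOX32. Its response was lower than in CNA by a log2 difference of −3.21 in CNA-KnC3HDZ (adjusted p 8.24e-08) and −3.78 in CNA-SmHOX32 (adjusted p 3.75e-10), the 2 lines in which the response of CYP79B2 was also called lower against the same CNA libraries. It was lower in CNA-PpHOX32 as well (−2.30, adjusted p 0.000232), where that of CYP79B2 was not called.

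Another 6 aliphatic genes were called on average. SOT17, a sulfotransferase gene, rose by 1.23 ± 0.31 (log2, SE), and IIL1 (AT4G13430) and IMD3 (AT1G31180), which also serve leucine synthesis, rose by 0.20 ± 0.07 and 0.70 ± 0.24. The glucosyltransferase gene UGT74C1 fell by 1.56 (−1.56 ± 0.27, adjusted p 3.78e-06) and was called in CNA, from 26.2 ± 7.1 to 3.69 ± 2.3 CPM, and in PHB, from 19.1 ± 6.2 to 3.49 ± 4.5 CPM (SD, n = 3). GSTU20 fell on average (adjusted p 0.000532) and was at 0 in all 3 induced CNA libraries against 4.65 ± 2.8 CPM in mock. FMO GS-OX2 also fell on average (−1.77 ± 0.52, adjusted p 0.00613), with 7 libraries at 0.

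Among 12 genes of breakdown and transport, 2 rose and 6 fell on average, against 28.5% of all genes called. Their median log2 fold change was −0.42 against 0.00 for all genes. NSP5, a nitrile specifier, rose by 0.76 ± 0.09 (log2, SE) and was called in 4 lines, and PEN2, an atypical myrosinase that acts on indolic glucosinolates, rose by 0.33 ± 0.08 and was called in 3. NSP1 was called higher in CNA, PHB and CNA-KnC3HDZ_8m and lower in CNA-SmHOX32, and its average was not called (0.15 ± 0.09, adjusted p 0.229). The myrosinase gene TGG1 fell (−0.46 ± 0.15, adjusted p 0.0176), as did BGLU23, the glucosidase PYK10 (−0.38 ± 0.07, adjusted p 3.19e-05), and GTR2, a glucosinolate transporter (−0.84 ± 0.29, adjusted p 0.0229). The other 3 that fell, TGG4, TGG5 and ESM1, had means of 0.898, 1.24 and 2.42 CPM.

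Of 5 genes that lead from the indolic aldoxime to camalexin or auxin, 3 rose on average and 0 fell, against 28.5% of all genes called. Their median log2 fold change was 1.23 against 0.00 for all genes. CYP71A12, which converts the aldoxime to indole acetonitrile, rose by 1.23 ± 0.15 (log2, SE) and was called in CNA, CNA-SDdelta, PHB-SDdelta and CNA-KnC3HDZ_8m. The nitrilase gene NIT2 rose by 0.99 ± 0.11 and was called in 5 lines. PAD3, the last enzyme of camalexin synthesis, rose on average (adjusted p 7.61e-05) and stood at 11.4 ± 8.8 CPM in induced and 1.60 ± 1.6 CPM in mock CNA (SD, n = 3).

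Cell type markers are given beside these results. In CNA, where CYP79B2 and CYP83B1 rose, all 5 leaf mesophyll markers fell and 0 of 7 tested root markers was called, and the summed root level was 236 ± 48 CPM induced against 230 ± 37 CPM mock (SD, n = 3). In PHB, where CYP79B2 rose too, the summed root level was 96.4 ± 46 CPM induced against 329 ± 73 CPM mock. ESB1 weighed most in this root sum, with a mean of 116 CPM over all libraries, and CASP1 came next at 34.2 CPM. In CNA-KnC3HDZ and CNA-SmHOX32, where CYP79B2 was not called, 4 of 5 and 5 of 5 leaf markers fell. The mean summed level of 5 phloem markers was lower in induced than in mock libraries in each of the 8 lines, at 271 ± 32 against 376 ± 34 CPM in CNA and 212 ± 41 against 378 ± 31 CPM in PHB (SD, n = 3). Averaged over the lines, the phloem markers did not move together. SUC2 rose (0.41 ± 0.09, log2, SE, adjusted p 0.000271), SWEET11 and SWEET12 fell (−1.66 ± 0.09 and −0.46 ± 0.13), and APL and SEOR1 were not called. The summed level of 5 guard cell and myrosin cell markers was 41.7 ± 3.3 CPM induced against 71.1 ± 18 CPM mock in CNA, without overlap. It was 30.4 ± 18 against 79.7 ± 22 CPM in CNA-PpHOX32 and 32.6 ± 8.8 against 24.3 ± 12 CPM in CNA-SmHOX32 (SD, n = 3). This sum was mostly TGG1, with a mean of 48.8 CPM over all libraries. FAMA, MYB60, KAT1 and TGG2 had means of 5.56, 2.39, 2.43 and 2.13 CPM. Of these 5 markers, 0 were called in CNA, 2 were called lower in CNA-PpHOX32 and 1 higher in CNA-SmHOX32. The part of these shifts in the results was not tested.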

How the data were processed

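The deposited tables hold raw counts, whole numbers per gene and 1 file for each library, from polyadenylated RNA extracted with Trizol and read by QuantSeq 3' sequencing, per the labels' protocols. Per the submitters' processing notes, Trimmomatic, STAR, featureCounts and DESeq2 were used with the build TAIR10, and the annotation and strand setting are not given in the sources used here. Positions come from TAIR10.1.

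The count test was that of edgeR 4.0.16 (R 4.3.3), after filterByExpr and TMM scaling, with 1 mean per group fitted to all 48 libraries by glmQLFit. There were 23 comparisons (8 inductions, their average, 7 differences in response and 7 differences between mock groups), each tested by glmQLFTest over 18909 genes with Benjamini-Hochberg adjustment and a threshold of 0.05. Adjusted p-values are from this test unless stated. CPM use TMM-scaled totals. The SE is the log2 fold change divided by the square root of F, an approximation. In simulated counts, 61 of 100 genes given a log2 change of 2 in the CNA line were called, and 12 of 100 given a change of 1. The changed genes were drawn from well-counted genes only, and no other gene was changed. These shares do not describe genes with few counts, such as MYB28. Over 48 replicate pairs, the chi-square per degree of freedom was 9.67 to 52.8, so no library was a repeat of another in its group. Pairs across groups were not checked. Floors cover counting error only.

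The members and lists were chosen with earlier results of these data known. List genes were named when called in the same direction in at least 3 inductions or in the average, and others were named to account for a count after their values were seen. Likeness to the aliphatic branch was not computed, as 1 of its 6 members was tested. Of 100 listed genes 99 were in the tables; AOP2 is not analysed here. Sequence matches used blastn 2.17.0. The alternatives were DESeq2 size factors, DESeq2 1.42.0, no filter, a filter at a mean count of 10, a fit of the compared lines alone, the replicate number as a block, and leaving out each library.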

Additional observations from a re-analysis of the deposited data

Results flagged for a closer look

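A pair of results stood out because the response to induction differed between lines by a test of the difference itself. The response of CYP79B2 was lower in CNA-KnC3HDZ than in CNA by a log2 difference of −3.37 ± 0.75 (SE, edgeR adjusted p 0.00518), with log2 fold changes of −0.74 and 2.63. All 3 induced libraries were above all 3 mock libraries in CNA, and in CNA-KnC3HDZ the groups overlapped. The response of CYP79B2 was also lower in CNA-SmHOX32 than in CNA, by −2.63 ± 0.73 (log2, SE, edgeR adjusted p 0.0327), with mock levels of 87.1 ± 48 and 12.3 ± 7.8 CPM (SD, n = 3).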

How the results depend on the processing

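The calls of CYP79B2 in CNA, CNA-SDdelta and PHB-SDdelta, in the difference between CNA-KnC3HDZ and CNA and in the mock difference between CNA-SmHOX32 and CNA were kept under every alternative run and in every fit that left out 1 library. With only the libraries of the compared lines, PHB had 0 called members (CYP79B2 1.71, adjusted p 0.102). Without the filter on low counts, CNA-KnC3HDZ_8m had 1 (CYP79B2 1.27, adjusted p 0.0347), CNA-SmHOX32 had 1 (CYP83B1 1.27, adjusted p 0.0353), and the difference between CNA-KnC3HDZ_8m and CNA-KnC3HDZ had 1. The mock difference between CNA-PpHOX32 and CNA had 0 with DESeq2 size factors (CYP79B2 1.82, adjusted p 0.0571). The cause of these changes was not tested. With a mean of at least 10 counts MYB28 was not tested, so the average had 2 called members. That filter, DESeq2 and DESeq2 size factors changed no other count of called members. DESeq2 gave no adjusted p-value in 11 tests of a member, and these counted as not called.

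Same-numbered replicates correlated at −0.0256 to 0.0774 in 24 comparisons, with 0 above 0.1, so no pairing by number was detected. A weak correlation does not show that such samples were handled apart. With the replicate block across lines, the mock difference between CNA-PpHOX32 and CNA had 0 called members (CYP79B2 1.74, adjusted p 0.0644), and uncalled values changed sign for CYP79B3 in PHB (−0.01) and CNA-KnC3HDZ_8m (0.00) and for CYP79B2 in CNA-SmHOX32 (0.01). With the block within lines the last was 0.13, and the MYB28 average was −2.12 (adjusted p 0.0761), leaving 2 called members. The block within lines could not be fitted to mock differences, and the fit of only the compared lines does not apply to the average.

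Leaving out 1 library at a time, the number of called members ran from 1 to 2 in CNA and from 0 to 1 in PHB, CNA-KnC3HDZ_8m, the difference between CNA-KnC3HDZ_8m and CNA-KnC3HDZ, that between CNA-SmHOX32 and CNA, and the mock difference between CNA-PpHOX32 and CNA. In the average over lines, MYB28 was called in 46 of 48 such fits, and CYP79B2 and CYP83B1 in all 48. Log2 fold changes that changed sign in these fits, none of them called, were those of MYB28 in CNA (−1.77 to 1.57), CNA-SDdelta (−2.39 to 0.87), PHB (−7.23 to 0.07) and CNA-SmHOX32 (−5.59 to 2.78). The same held for CYP79B2 in CNA-SmHOX32 (−0.38 to 0.38) and for CYP79B3 in PHB (−0.29 to 0.32) and CNA-KnC3HDZ_8m (−0.85 to 0.33). For CYP83B1 it held in PHB (−0.31 to 1.20), PHB-SDdelta (−0.19 to 0.07), CNA-KnC3HDZ (−0.70 to 0.17) and CNA-PpHOX32 (−0.05 to 0.38), and for SUR1 in CNA (−0.11 to 0.47), PHB (−0.24 to 0.33) and CNA-PpHOX32 (−0.35 to 0.32). Differences below the level of 3 counts, 0.08 to 1.5 CPM depending on the library, were not detectable at this depth. Larger differences also went uncalled, such as that of MYB28 in CNA-KnC3HDZ_8m (3 against 76 summed counts, edgeR adjusted p 0.198). The fit put the spread between replicates at a common biological coefficient of variation of 60.9%.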
